A study of Mus musculus with 2 samples.

Results

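The 9 enzyme genes described here, of 21937 genes in the deposited table, are Asns, Got1, Got2, Gpt2, Bcat1, Aldh18a1, Pycr1, Prodh and Pck2, which encode enzymes that make asparagine and proline, move amino groups, or draw carbon from oxaloacetate. They were picked by name with their difference between the groups known, so their group levels and ratios are a description of the choice and carry no test. The data are messenger RNA sequencing of mouse embryonic stem (ES) cells, which are pluripotent cells derived from the early embryo, wild type and of the mixed strain 129Sv-C57Bl/6, grown without feeder cells. Both groups were cultured alike; 1 received the solvent DMSO and the other 500 nM ICRF-193, a catalytic inhibitor of topoisomerase II, for 16 h. Each group is labelled as 3 replicates, with nothing said on whether these were separate cultures, so a p-value reflects only how far these libraries differ, which may be technical. The table holds group means in normalised reads, that is reads over the size factor of the library. Whole reads of each library were worked back from the digits of those means, and the libraries are called A, B and C in each group by decreasing size factor, which pairs nothing.

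Asparagine synthetase turns aspartate into asparagine with glutamine as the nitrogen donor, and the aspartate comes from oxaloacetate through the glutamate-oxaloacetate transaminases. Proline is built from glutamate, first by the bifunctional synthase encoded by Aldh18a1 and then by the pyrroline carboxylate reductases, and proline dehydrogenase starts its return to glutamate. Many genes of this group are known targets of ATF4, the transcription factor that responds to amino acid shortage and to stress of the endoplasmic reticulum, and which binds composite C/EBP-ATF elements in their promoters.

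The libraries held 27496798 to 43669396 recovered reads. The ES cell label was checked on 8 markers, whose summed level was 126601 to 138255 normalised reads in DMSO and 82111 to 96689 in ICRF-193, with none at 0. All 8 ES cell markers had a lower mean in ICRF-193. Of these only Zfp42 passed, at 8155 normalised reads in DMSO and 4111 in ICRF-193 (authors' deposited DESeq adjusted p = 0.00186). Klf4, Nanog, Esrrb and Zfp42 were highest in library A of both groups, while Pou5f1 and Tdgf1 were lowest there. Library A of both groups also stood apart in collagen genes and in endoderm markers. Summed over 7 markers of fibroblasts or feeder cells, the level in DMSO-A was 17192 normalised reads where DMSO-B and DMSO-C had 1675 and 1709. It was 19608 in ICRF-193-A where the other ICRF-193 libraries had 2321 and 2966. Col1a1 made up 12908 and 15180 of these sums in the libraries A, and Col1a2, Col3a1 and Postn were highest there too. Thy1 was lowest in library A of both groups, Dcn was lowest in DMSO-A, and Lum had at most 1 read in any library. Among 5 endoderm markers the summed level ran from 262 to 1420.0 in DMSO and from 440 to 1346 in ICRF-193, the highest in library A each time. Over 4 neural markers it ran from 7094 to 8912 and from 8246 to 10462. Nes and Tubb3 make up most of that sum and had higher means in ICRF-193, while Pax6 fell from 516 to 180 normalised reads (authors' deposited DESeq adjusted p = 9.67e-07) and Sox1 was at 170 and 75.1 without passing. The part of these differences in the enzyme values was not tested, and each enzyme ratio is therefore also given from libraries B and C alone. In bulk RNA, fewer cells of a type and less RNA per cell cannot be told apart.

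All 9 enzymes had a lower mean in ICRF-193 than in DMSO. So did 60.5% of the 11868 genes with a mean of at least 100 normalised reads. Pck2 stood at 20.6% of its DMSO level, Aldh18a1 at 31.5%, Pycr1 at 32.4% and Gpt2 at 35.2%. Asns at 54.2% and Bcat1 at 58.3% formed a middle range, and Got2 at 76.1%, Got1 at 78.1% and Prodh at 81.0% were nearest to DMSO. The median log2 ratio of the 9 was -0.88, beside -0.10 over the 11868 genes with a mean of at least 100 normalised reads. Ranked among those from the lowest ratio, Pck2 was number 4, Aldh18a1 number 10, Pycr1 number 15, Gpt2 number 27, Asns number 151 and Bcat1 number 249. Got2 was number 1943, Got1 number 2304 and Prodh number 2954. The authors' deposited table lists 6 of the 9 as lower at an adjusted p under 0.05 and 0 as higher; Got1, Got2 and Prodh are not listed. Of all 18759 genes with reads it lists 1.26% as lower and 5.97% as higher, 7.23% in either direction. Since this contrast chose the genes, nothing is read from that count.

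**Figure D1:**
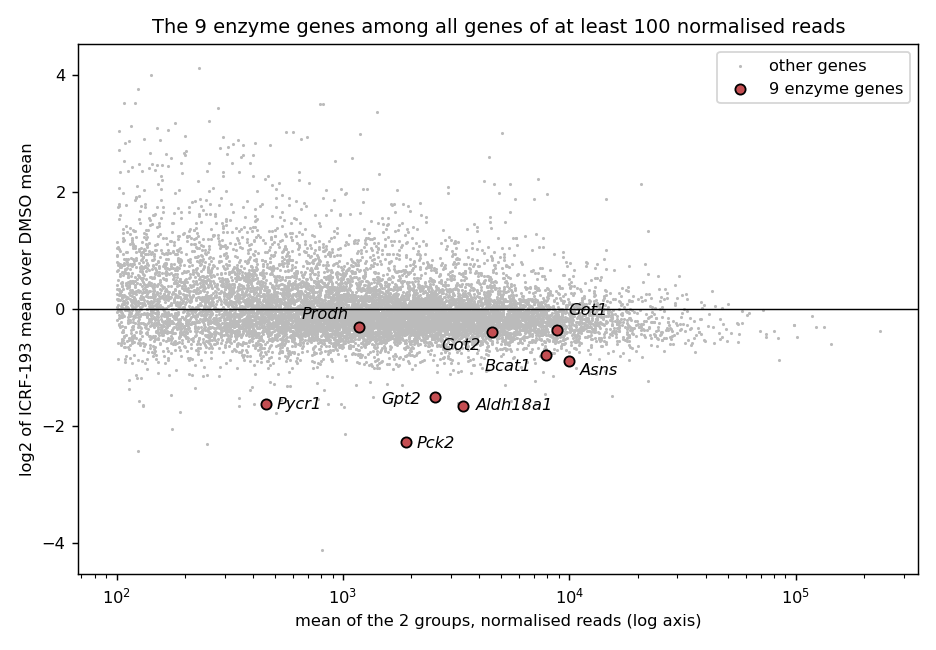
Each point is a gene with a mean of at least 100 normalised reads; the horizontal axis is the mean of the 2 groups on a log scale and the vertical axis their log2 ratio, ICRF-193 over DMSO. Red points are the 9 enzyme genes, from Pck2 at -2.28 to Prodh at -0.30, all below 0.

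Asns, the asparagine synthetase gene, was at 13488, 13853 and 11487 normalised reads in DMSO libraries A, B and C, and at 7007, 7320.1 and 6698 in those of ICRF-193. The groups did not overlap, and the lowest DMSO library was 1.57 times the highest ICRF-193 library. The means were 12943 ± 1273 and 7009 ± 311 (SD, n = 3), a log2 ratio of -0.88, and libraries B and C alone gave -0.85. Its DMSO mean is the sole value among the 9 enzymes that allowed more than 1 set of whole reads. The alternative of 2 would put the libraries at 28171, 10038 and 619 normalised reads.

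Got1 and Got2 encode the cytosolic and the mitochondrial glutamate-oxaloacetate transaminase, which interconvert aspartate and oxaloacetate on the 2 sides of the malate-aspartate shuttle. Got1 was at 9194, 10513 and 10002 normalised reads in DMSO libraries A, B and C, and at 7043, 7935 and 8211 in ICRF-193. Got2 was at 4827, 5087 and 5611 in DMSO, and at 3936, 3859 and 4023 in ICRF-193. Neither gene overlapped between groups, but the gaps were narrow: the lowest DMSO library was 1.12 times the highest ICRF-193 library for Got1 and 1.20 times for Got2. Mean levels were 9903 ± 665 and 7729.6 ± 611 for Got1 and 5175 ± 399 and 3939 ± 82.0 for Got2 (SD, n = 3). Their log2 ratios were -0.36 and -0.39, and -0.35 and -0.44 in libraries B and C. The Got2 exons share 434 bases with Gm45760 on the opposite strand, and a pseudogene, Got2-ps1, is annotated. As neither the strand of the kit nor the counting of shared reads is given in the sources used here, reads of these copies could not be separated.

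Gpt2, the mitochondrial alanine transaminase that makes alanine from pyruvate and glutamate, was at 3642, 4239 and 3475 normalised reads in DMSO and at 1384, 1326 and 1284 in ICRF-193 (libraries A, B and C). Its ICRF-193 libraries lay close together, at 1331 ± 50.4, and all were far below the DMSO mean of 3786 ± 401 (SD, n = 3). The log2 ratio was -1.51, and -1.56 in libraries B and C.

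Bcat1, the cytosolic branched-chain amino acid transaminase, was at 11490.0, 9859 and 8427 normalised reads in DMSO and at 7189, 5141 and 5015 in ICRF-193 (libraries A, B and C). Library A was the highest of its group on both sides, and the gap between groups was 1.17 times. The means were 9925 ± 1533 and 5782 ± 1221 (SD, n = 3), a log2 ratio of -0.78, with -0.68 from the 2 libraries A and -0.85 from libraries B and C. An antisense gene, Gm26666, shares 337 exonic bases with Bcat1.

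The genes of proline synthesis differed between the groups by about the same ratio. Aldh18a1, whose product makes the shared precursor of proline and ornithine from glutamate, was at 5405, 5354 and 4677 normalised reads in DMSO and at 1720.5, 1626 and 1523 in ICRF-193 (libraries A, B and C). Pycr1, a mitochondrial pyrroline carboxylate reductase that completes proline, was at 785, 689 and 599.8 in DMSO and at 266, 204 and 202 in ICRF-193. In both genes the groups were far apart, the lowest DMSO over the highest ICRF-193 library being 2.72 for Aldh18a1 and 2.25 for Pycr1. The means of Aldh18a1 were 5145 ± 406 and 1623 ± 98.9, and those of Pycr1 691 ± 92.5 and 224 ± 36.3 (SD, n = 3). Log2 ratios were -1.66 and -1.63, and in libraries B and C -1.67 for both.

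Prodh, which encodes proline dehydrogenase, the mitochondrial enzyme that starts proline breakdown, was the one gene whose groups overlapped. It was at 852, 1443 and 1610.2 normalised reads in DMSO and at 761, 1197 and 1206 in ICRF-193 (libraries A, B and C). DMSO-A lay below ICRF-193-B and ICRF-193-C, and the spread within a group was the widest of the 9 genes, 30.6% of the mean in DMSO and 24.1% in ICRF-193. The means were 1302 ± 399 and 1055 ± 254 (SD, n = 3). The log2 ratio of -0.30 was -0.16 from the 2 libraries A and -0.35 from libraries B and C.

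Pck2, the mitochondrial phosphoenolpyruvate carboxykinase that turns oxaloacetate into phosphoenolpyruvate, had the lowest ratio. It was at 2339, 3633 and 3458 normalised reads in DMSO and at 586, 673 and 683 in ICRF-193 (libraries A, B and C). The lowest DMSO library was still 3.42 times the highest ICRF-193 library. Means were 3143 ± 702 and 648 ± 53.4 (SD, n = 3), a 4.85-fold lower level and a log2 ratio of -2.28. Libraries B and C alone gave -2.39. Its exons share 53 bases with the antisense gene Gm10876.

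**Figure D2:**
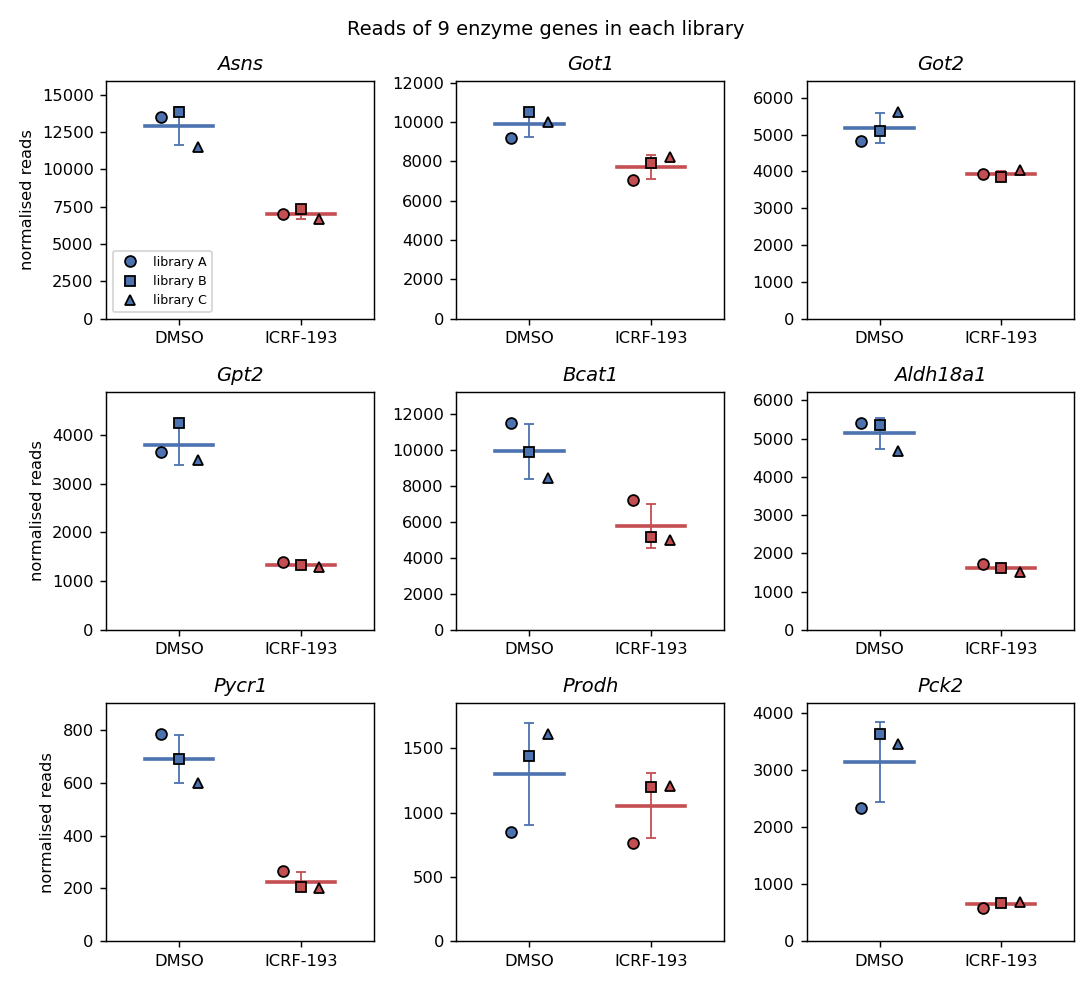
Each panel is 1 gene, with normalised reads on a linear axis from 0; circles, squares and triangles are libraries A, B and C, horizontal lines the group means and error bars the SD (n = 3). The groups are apart in 8 panels and overlap for Prodh, whose 2 libraries A lie lowest in their groups.

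The reads behind these values ran from 180 for Pycr1 in ICRF-193-C to 16945 for Asns in DMSO-A. In 8 of 9 genes every ICRF-193 library was below every DMSO library, which held for 18.8% of 14982 genes (18.6% had every ICRF-193 library above); the choice of the genes used this difference. Limma-voom on the recovered reads listed 7 of the 9 as lower, where it listed 5.95% of 14982 genes (9.75% as higher), the exceptions being Prodh and Got1. Scaled by total reads it listed 6 of 9, where it listed 2.78% (12.2% as higher). With a term for libraries A against the rest it listed 9 of 9, where it listed 32.6% (27.1% as higher), and without both libraries A again 9 of 9, where it listed 28.8% (25.1% as higher).

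The position of library A is a measure that the choice of genes did not use. Prodh had its lowest values in libraries A, 0.558 times the mean of B and C in DMSO and 0.633 times in ICRF-193. Pck2 also lay low in DMSO-A, at 0.66 times, but less so in ICRF-193-A, at 0.864 times. Bcat1 and Pycr1 lay high in libraries A, at 1.26 and 1.22 times in DMSO and at 1.42 and 1.31 times in ICRF-193. The other 5 genes stayed between 0.872 and 1.09 times in both groups. For comparison, the middle 80% of 14982 genes ran from -0.65 to 0.83 on the log2 scale in DMSO and from -0.65 to 0.66 in ICRF-193. Prodh, at -0.84 and -0.66, was the one member outside that range in both groups. In ICRF-193 it was only just outside, at -0.659 against a bound of -0.653.

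Levels of different genes were compared per kilobase of the longest transcript with a consensus coding sequence. In DMSO Asns was highest at 6420 normalised reads per kilobase, followed by Got1 at 4812, Got2 at 2045, Aldh18a1 at 1459, Bcat1 at 1267, Gpt2 at 1040.3, Pck2 at 925, Prodh at 546 and Pycr1 at 237. In ICRF-193 the order became Got1 at 3756, Asns at 3477, Got2 at 1557, Bcat1 at 738, Aldh18a1 at 460.2, Prodh at 442, Gpt2 at 366, Pck2 at 190.4 and Pycr1 at 76.9. Asns thus gave the first place to Got1, and Prodh moved ahead of Gpt2 and Pck2. Spread between libraries was 9.84% of the mean for Asns and 6.72% for Got1 in DMSO. In ICRF-193 the library ranges of Asns and Got1 overlap on this scale. With all annotated exons as the length, Prodh came after Pycr1 in DMSO, at 167 against 176 per kilobase, so the places of genes with many transcript forms depend on the length used.

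Isozymes of the 9 enzymes gave 2 genes that rose, 0 that fell and 5 that did not pass, among 7 with reads. Of all genes with reads the authors' test lists 5.97% as higher and 1.26% as lower. Got1l1, a relative of Got1, rose from 306 ± 45.6 to 597 ± 139 normalised reads (SD, n = 3; authors' deposited DESeq adjusted p = 0.0137). Prodh2, the hydroxyproline dehydrogenase gene, rose from 6.87 ± 2.83 to 27.6 ± 11.0 normalised reads (SD, n = 3; authors' deposited DESeq adjusted p = 0.0178). Both were higher in 3 of 3 ICRF-193 libraries than in any DMSO library. Limma-voom without 1 library lost Got1l1 when library B or C of either group was left out (adjusted p up to 0.132). It lost Prodh2 without any of these or DMSO-A (adjusted p up to 0.136).

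Some near relatives that share a reaction with a member had values as follows. Pycrl, the cytosolic pyrroline carboxylate reductase, was at 2024 ± 513 and 1901 ± 381 normalised reads (DMSO and ICRF-193; SD, n = 3). Per kilobase in DMSO, Pycrl at 1512 was above Pycr1 at 237. Bcat2, the mitochondrial branched-chain transaminase, was at 13929 ± 3769 and 9943 ± 2583 normalised reads, and Gpt, the cytosolic alanine transaminase, at 308 ± 68.0 and 358 ± 113 (SD, n = 3). The ICRF-193 and DMSO libraries of these 3 genes overlapped. Pck1, the cytosolic carboxykinase, had 1 to 3 reads in each library, so that nearly all phosphoenolpyruvate carboxykinase reads were those of Pck2. Differences between a member and its isozyme were not tested, since the members were chosen for their ratio.

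**Figure D3:**
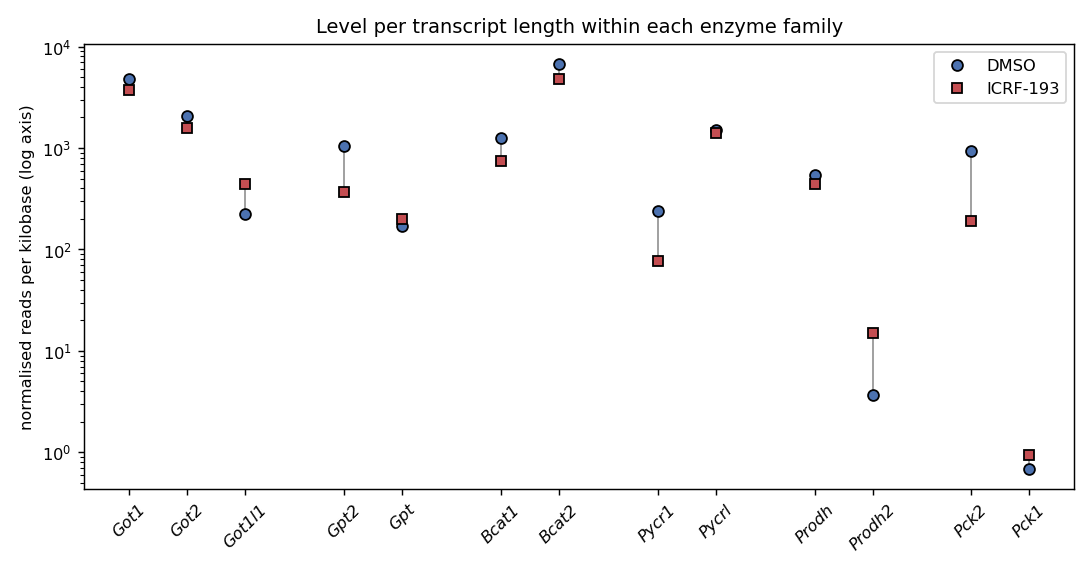
Normalised reads per kilobase of transcript on a log axis for members and isozymes of 6 enzyme families, with circles for the DMSO mean and squares for the ICRF-193 mean. Pck2 drops from 925 to 190.4 while Pck1 is near 1, and Pycr1 lies below Pycrl in both groups.

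Across 7 lists of amino acid and related enzymes outside the 9, 85 genes had reads, of which 9 rose, 1 fell and 75 did not pass. The authors' test, which gave these counts, lists 5.97% of all 18759 genes with reads as higher and 1.26% as lower. The median log2 fold change of the 85 was -0.06. It was 0.01 over all genes with reads and -0.10 over genes with a mean of at least 100 normalised reads. Limma-voom, which tested 78 of the 85, gave 9 higher and 7 lower, where it lists 9.75% and 5.95% of all genes. With the split term it gave 22 and 29, where it lists 27.1% and 32.6%. Psat1, the aminotransferase of serine synthesis, was the one that fell, from 22623 to 8087 normalised reads (log2 fold change -1.48 in the authors' deposited table, DESeq adjusted p = 1.59e-07). Psat1 was 1 of 9 genes with reads in the list of other aminotransferases, and 8 of these did not pass. Only 6 of the 9 had enough reads for limma-voom. Of those that did not pass, Agxt2l2 had the highest level, at 472 in DMSO and 497 in ICRF-193.

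Among 11 genes of proline, ornithine and arginine metabolism with reads 2 rose, 0 fell and 9 did not pass, with a median of 0.31. The share of all genes with reads in the authors' test was 5.97% higher and 1.26% lower. Limma-voom gave 2 higher and 1 lower of 10 tested, and 7 and 2 with the split term. Aldh4a1, the dehydrogenase that completes the return of proline to glutamate, was at 2584, 2045 and 2341 normalised reads in DMSO libraries A, B and C and at 4728, 4952 and 5534 in ICRF-193. It was 2.18-fold higher (authors' deposited DESeq adjusted p = 2.52e-04), in 3 of 3 libraries above any DMSO library, while Prodh, one step before it, had overlapping groups. Its exons share 1595 bases with Gm21969 on the same strand. Agmat, the agmatinase gene, rose from 13.1 to 41.4 normalised reads (authors' deposited DESeq adjusted p = 0.00973), and limma-voom lost it without DMSO-C, ICRF-193-B or ICRF-193-C (adjusted p up to 0.0678). Odc1, the ornithine decarboxylase gene and the highest of those that did not pass, was at 12426 in DMSO and 10109 in ICRF-193.

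Among the 13 genes of asparagine and aspartate metabolism 3 rose, 0 fell and 10 did not pass, with a median of -0.14. The share of all genes with reads was 5.97% higher and 1.26% lower. At an unadjusted p under 0.05, 3 were lower in the authors' test. Limma-voom gave 3 higher and 2 lower, and 4 and 7 with the split term. Ass1, which joins citrulline and aspartate, was at 946, 908 and 959.6 normalised reads in DMSO libraries A, B and C and at 2099.9, 2047 and 2280.3 in ICRF-193, 2.28-fold higher (authors' deposited DESeq adjusted p = 8.58e-05). Acy3 rose 1.94-fold (adjusted p = 0.0209) and Adssl1, an adenylosuccinate synthase, 1.82-fold (adjusted p = 0.0422) in the authors' deposited DESeq test. Limma-voom lost Acy3 without DMSO-B, DMSO-C or ICRF-193-C (adjusted p up to 0.0974) and Adssl1 without any library but DMSO-A (adjusted p up to 0.137). Cad, which uses aspartate for pyrimidines, did not pass, at 22092 in DMSO and 27829 in ICRF-193.

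Among the 13 genes of gluconeogenesis and of malate and oxaloacetate 2 rose, 0 fell and 11 did not pass, with a median of 0.08. Fbp1 and Fbp2, the fructose bisphosphatase genes of glucose synthesis, rose from 25.2 to 436 and from 45.8 to 354 normalised reads (authors' deposited DESeq adjusted p = 1.76e-05 and 4.49e-15). Pck2, an earlier step of the same route, was lower in these libraries. Mdh2, the mitochondrial malate dehydrogenase, was at 17797 and 16512. Among 14 genes of glutamate and glutamine metabolism 0 passed the authors' DESeq test (1 lower and 0 higher at an unadjusted p under 0.05), with a median of -0.02, and Glud1, the glutamate dehydrogenase, was at 19191 and 22137. Among 18 genes of branched-chain amino acid breakdown, the route after Bcat1 and Bcat2, 0 passed the authors' DESeq test (3 lower and 1 higher at an unadjusted p under 0.05), with a median of -0.24, and Dld was at 5364 and 4409. In limma-voom 3 of these 18 passed as lower, and 0 of the 14 glutamate and glutamine genes; with the split term 10 were lower and 1 higher of the 18, and 4 lower and 2 higher of the 14. Over all genes with reads the authors' test listed 1.26% as lower and 5.97% as higher. Limma-voom listed 5.95% of all genes as lower, and the split term 32.6% as lower and 27.1% as higher.

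**Figure D4:**
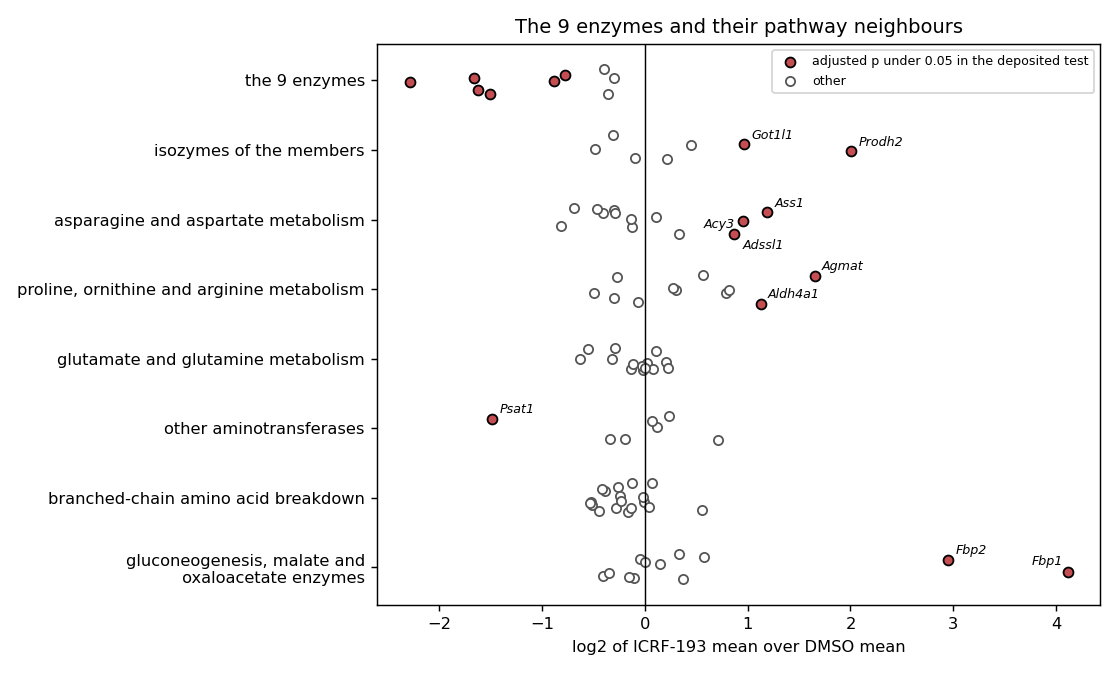
Each point is a gene, placed by its log2 ratio, ICRF-193 over DMSO; rows are the 9 enzymes and 7 lists of related genes, and filled points have an adjusted p under 0.05 in the authors' deposited test. Filled points outside the 9 enzymes lie above 0 except Psat1 at -1.48, and the largest values are Fbp1 at 4.11 and Fbp2 at 2.95. That test lists 5.97% of all genes with reads as higher and 1.26% as lower.

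Atf4 was measured beside its known targets. It was at 8097, 13519 and 12604 normalised reads in DMSO libraries A, B and C and at 3249, 4625 and 4685 in ICRF-193, without overlap. The mean was 2.72-fold lower (authors' deposited DESeq adjusted p = 6.67e-04). Limma-voom lost the call without DMSO-B, DMSO-C or ICRF-193-B (adjusted p up to 0.0628). Like Pck2, Got1 and Prodh, it was lowest in library A of both groups.

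The promoter windows of the 9 genes were searched with their lower means known. Many of these genes are known targets of ATF4, so nothing is read from the share of their windows with a composite C/EBP-ATF motif. Windows of 300 bases, 250 before and 50 after the start site, came from RefSeq (GRCm38.p6), and all 9 genes matched, Bcat1 with 2 windows. The composite C/EBP-ATF motif TGATGNAA, on either strand, was present in 4 of the 10 windows, those of Asns, Pycr1, Pck2 and Got1, and in 3.97% of all 32851 windows. Its first base lay 23 bases before the start site in Asns, 103 before it in Pycr1 and Pck2, and 102 before it in Got1. The 4 windows are shown 5′ to 3′ on the strand of the gene, with the motif in capitals; in Pck2 and Got1 it lies on the opposite strand, so the capitals show its reverse complement. The window of Asns is chr6:7693160-7693459 (minus strand), that of Pycr1 chr11:120643699-120643998 (minus), that of Pck2 chr14:55540016-55540315 (plus) and that of Got1 chr19:43524556-43524855 (minus).
Asns: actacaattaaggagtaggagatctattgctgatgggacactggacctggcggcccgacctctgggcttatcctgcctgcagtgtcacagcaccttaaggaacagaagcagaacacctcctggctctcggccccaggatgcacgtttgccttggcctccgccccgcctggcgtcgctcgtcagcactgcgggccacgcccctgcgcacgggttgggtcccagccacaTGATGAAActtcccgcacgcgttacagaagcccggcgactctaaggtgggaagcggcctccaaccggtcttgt
Pycr1: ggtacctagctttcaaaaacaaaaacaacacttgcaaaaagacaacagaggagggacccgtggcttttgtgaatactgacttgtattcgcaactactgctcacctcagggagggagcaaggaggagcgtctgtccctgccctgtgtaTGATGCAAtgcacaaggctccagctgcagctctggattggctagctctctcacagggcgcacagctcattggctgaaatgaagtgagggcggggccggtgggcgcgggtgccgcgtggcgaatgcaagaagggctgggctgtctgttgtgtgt
Pck2: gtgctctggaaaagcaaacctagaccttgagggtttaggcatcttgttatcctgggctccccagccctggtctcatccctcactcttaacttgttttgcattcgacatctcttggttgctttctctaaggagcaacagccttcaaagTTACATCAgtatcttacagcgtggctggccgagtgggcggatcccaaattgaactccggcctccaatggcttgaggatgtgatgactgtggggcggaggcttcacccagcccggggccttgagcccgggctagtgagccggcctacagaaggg
Got1: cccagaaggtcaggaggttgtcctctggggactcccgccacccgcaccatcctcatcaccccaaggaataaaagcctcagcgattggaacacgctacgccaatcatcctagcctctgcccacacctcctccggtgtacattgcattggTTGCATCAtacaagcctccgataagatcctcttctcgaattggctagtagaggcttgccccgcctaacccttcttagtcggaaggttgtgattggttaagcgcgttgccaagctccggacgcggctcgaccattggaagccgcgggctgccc

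The matches did not sort the genes by their ratio. Asns, Pycr1 and Pck2 hold the motif at 54.2%, 32.4% and 20.6% of the DMSO level, and Got1 holds it at 78.1%. Aldh18a1 and Gpt2, at 31.5% and 35.2%, have no match to these letters in the window. The stricter form TGATGCAA was in 2 windows, Pycr1 and Got1, and in 0.895% of all. The E-box CACGTG was in 1 of the 10 windows, that of Aldh18a1, 59 bases before the start site, and in 7.15% of all; the cAMP response element TGACGTCA was in 0 of 10 and in 1.79% of all. Windows of the 7 related lists held TGATGNAA in 2 of 86 (2.33%), G6pc and Me3, and windows of genes that rose in the authors' deposited table in 2.48%. Windows of genes that fell there, the 9 enzymes left out, held it in 8.41%. A match of letters is not a measured binding site.

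**Figure D5:**
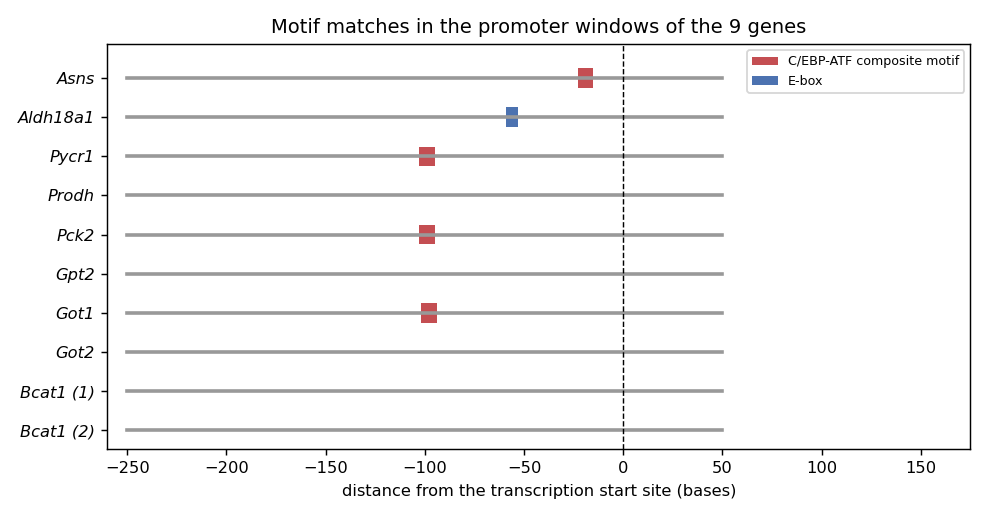
Lines are the RefSeq promoter windows of the 9 genes (2 for Bcat1), from 250 bases before to 50 after the start site at 0; red boxes mark the C/EBP-ATF composite motif and the blue box an E-box. Matches in Pycr1, Pck2 and Got1 begin 102 or 103 bases before the start site, and that of Asns 23 bases before it.

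The values over the 6 libraries were also compared between genes. Likeness was the root mean square distance between log2 values (1 normalised read added) centred on each gene's mean, over genes with a mean of at least 100. The distance includes the difference between the groups, by which the 9 were chosen, so members with like ratios come out close. For each of the 9 the nearest gene outside them was closer than any other member. The search ran over 11823 genes, a pool in which a closer gene is likely, so nothing is read from this. Got1 and Got2 were nearest to each other among the 9, at 0.09, and Aldh18a1 was nearest to Gpt2 and Pycr1, both at 0.11. Asns was nearest to Bcat1, at 0.19, and Pck2 to Aldh18a1 at 0.40, the loosest match. Outside the 9, the nearest genes were Zic2, Zic5 and Gm514 for Pck2 (0.18 to 0.22), Spp1, Msc and Fut9 for Aldh18a1 (0.06 to 0.09), and Fam169b, Fzd5 and Spp1 for Pycr1 (0.11 to 0.14). They were Msc, Klf15 and Spp1 for Gpt2 (0.09 to 0.10), Frat2, Pbk and Cisd3 for Asns (0.06 to 0.07), and Bnc2, Ddx3x and Eif2s2 for Bcat1 (0.05 to 0.07). For Got1 they were Cops6, Commd7 and Zfp472 (0.02), for Got2 Zfp770, Bckdk and Isoc1 (0.02 to 0.03), and for Prodh Elof1, 0910001L09Rik and Pafah1b3 (0.02 to 0.04).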

How the data were processed

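Messenger RNA of 2 samples, DMSO and ICRF-193, each labelled as 3 replicates, is given in 1 table of the authors' comparison. The authors used TopHat, HTSeq and DESeq with build mm9, per the submitters' processing notes; versions, annotation and strand are not given in the sources used here. The deposited group columns are a signal, the mean of reads divided by size factors; the deposited ratio divides ICRF-193 by DMSO, the deposited log2 values are its logarithm, and the deposited p-values come from the authors' DESeq test, unadjusted and adjusted. Calls use the deposited adjusted p under 0.05 over 18759 genes with reads.

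Means are printed to 15 significant digits, enough to solve for the whole reads of 3 libraries by a lattice search, a step chosen with the deposited values known. A single solution existed for 18210 genes (97.1%), 504 were resolved by likelihood (posterior 0.99 or above), and 45 stayed unresolved. Recomputed size factors differed by at most 0.039%; the search was tested on simulated data. Limma-voom (limma 3.58.1, R 4.3.3) with Benjamini-Hochberg adjustment took genes having 10 or more reads in 3 or more libraries, scaled by the recovered size factors.

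Lengths and overlaps came from GENCODE M21 (GRCm38) by symbol. The members, lists, rules and alternatives were chosen with earlier results of these data known. Named genes are the 9, each called gene of a list, the highest gene not called, the 3 nearest profiles per member, and Atf4; the isozymes Pycrl, Gpt and Pck1, the cell type markers, and G6pc and Me3 were named after their values were seen. A planned comparison of protein identities was not run, as protein sequences were not used here, and the values of 1 isozyme are not reported here. Alternatives were limma-voom, a split term, total read scaling, a level filter, a pseudocount of 10, other subsets of libraries and a stricter motif; leaving out both libraries A, the counts of the 9 genes called under each setting, and the length from all exons were added after seeing the data.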

Additional observations from a re-analysis of the deposited data

How the results depend on the processing

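Each of the 9 enzyme genes stayed below its DMSO level in all 10 alternatives, 90 values in all. These were a pseudocount of 10, total read scaling, libraries A alone, B and C alone, and 6 ratios of group means without 1 library. By the SD of log2 values, combined from both groups, 89 of the 90 moved by less than 1 SD. Leaving out 1 library or both libraries A can hardly move a ratio by that much, so the count of 89 is no test. The exception was Got2 with total read scaling, at -0.27. That scaling moved the median of all genes by 0.12, from -0.04 to 0.08. Without 1 library the median of the 9 ran from -0.97 to -0.83. The number of the 9 that limma-voom listed as lower was 5 to 8 without 1 library. Without DMSO-B, DMSO-C, ICRF-193-B or ICRF-193-C it was 5, and Bcat1, Got1, Got2 and Prodh were not listed.

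Counts over all genes depended far more on the setting; the causes were not tested. Against 1120 higher and 237 lower in the authors' DESeq test, limma-voom gave 891 lower (1461 higher), a split term 4057 and 4887, total read scaling 1833 and 416, leaving out both libraries A 3763 and 4314, and a level of at least 100 normalised reads 703 higher (227 lower). Without 1 library limma-voom ran from 476 to 1723 higher and from 110 to 1390 lower. In the related lists, with 9 higher and 1 lower, limma-voom gave 7 lower, the split term 22 and 29, total read scaling 2 lower, and both libraries A left out 21 and 25; without 1 library 4 to 12 were higher and 1 to 12 lower. The stricter motif left 2 of 4 windows. No paired analysis was possible because the table pools the replicates and the recovered libraries carry no replicate number; the split term sets both libraries A against the rest and pairs no replicates.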
